A study of Mus musculus with 34 samples.

Results

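Late differentiation of wild-type mouse embryonic stem cells (ESCs) was followed by comparing 3 RNA libraries from day 6 with 3 from day 4, and 3 libraries of day 5 served as the midpoint. The 6 libraries compared were chosen by their titles, out of 30 RNA libraries with deposited expression values and 34 samples in the series. All were made from total RNA of F1(G4) cells, a hybrid ESC line of strain 129S2/C57Bl6J and wild-type genotype, which formed aggregates in hanging drops, settled on a fibronectin coat, received BMP4 at 20 ng/mL in a medium without serum and were taken at day 6 or day 4. The series was built around the long non-coding RNA Handsdown (Hdn). A second genotype of the same background, Hdn null, was sampled on the same days with 3 libraries each. Apart from setting the 2 courses against each other, Hdn null libraries served here in the scaling of all values and in an alternative fit. The labels do not say what the Hdn null change is, how many clones carry it or whether the replicates are separate cultures, so p-values measure the spread between these libraries, which may be technical. Reads of Hdn, annotated as 5033428I22Rik, were few: it had 0.0838, 0.0597 and 0.342 scaled RPKM at day 6 and 0.00147, 0.00302 and 0.0144 at day 4 in wild-type cells, and 0.0121 or less in each Hdn null library of these days. It lay below the filter for testing. The growth text of these samples speaks of dissected hearts and the design text of Brachyury mutants, whereas titles, stages and treatment text describe differentiating ESCs, and these were followed.

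Expression is given in scaled RPKM, which is the authors' RPKM (read counts corrected for gene length and library depth) divided by a size factor per library, so that levels can be compared between genes. The 9 wild-type libraries of days 4 to 6 held 10993 to 12004 genes at 1 RPKM or more and size factors of 0.979 to 1.11. Their depth, inferred from the step between the smallest values of short genes, was 55.4 to 65.3 M reads. Mitochondrially encoded RNAs made up 1.82% to 3.57% of the summed RPKM. Day 4 replicates lay closer together than day 6 replicates, with a median SD over genes of 0.212 at day 6 and 0.134 at day 4 on the log2 scale.

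Libraries of the same day differed in ways that touch the results. Day 6 replicate 3 held embryonic globins, matrix genes and Hox genes that the other day 6 libraries nearly lacked. Hbb-bh1, an embryonic beta-type globin, stood at 0.374, 0.403 and 109 scaled RPKM in day 6 replicates 1, 2 and 3, against 0, 0.0809 and 1.6 at day 4. Day 6 replicate 1 carried the most Crabp1 and the least of most heart genes that rose, and day 4 replicate 1 had far fewer primitive streak transcripts than the other day 4 libraries. The counts of changed genes below are therefore also given without these libraries.

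BMP4 is a secreted signal that, in the embryo, helps cells of the epiblast leave pluripotency through the primitive streak, the transient structure where mesoderm forms. Nascent mesoderm then loses streak factors such as Brachyury and switches on lateral plate and cardiac progenitor factors of the GATA, NKX, TBX and HAND families, before the genes of the contractile apparatus follow. The same signal can also turn cells toward extraembryonic fates, so placental and surface ectoderm genes are watched in such cultures.

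Of 13057 genes tested, 504 were called higher at day 6 than at day 4 (3.86%) and 235 were called lower (1.8%), together 5.66%. A gene was called, and is said to have risen or fallen, where limma's p, adjusted by Benjamini-Hochberg over all genes tested, was under 0.05 and the log2 change reached 1 in either direction. In 497 of the genes that rose and 230 of those that fell, the 3 values of day 6 all lay outside the range of day 4, as they did for 36.4% of all genes tested. The 12 largest rises and 12 largest falls named below were picked among such genes. Their lack of overlap was thus a condition of the choice and adds no support. Since nearly all called genes lacked overlap, it adds none where it is stated below for other called genes either. The median log2 change over all genes was 0.02. Counts were 498 higher and 193 lower without day 6 replicate 3, 604 and 277 without day 6 replicate 1, and 445 and 207 without day 4 replicate 1. With only the 6 libraries in the fit, 24 of the 106 listed or named genes that were called lost their call (adjusted p of 0.05 to 0.166): Tnni1, Crabp1, both Sprr2a genes, Myl7, Snai2, Mixl1, Mesp2, Rbp4, Spink1, Bmp4, Wnt2, Rspo3, Nkd1, Hey1, Dhrs3, Hoxd9, Gdf3, Pitx1, Plagl1, Ndn, Nnat, Ndrg1 and Ddit4. A gene had to reach 1 scaled RPKM in 3 of the 15 wild-type libraries to be tested, and 96 of the genes that rose and 8 of those that fell passed only through the day on which they were high, so their counts describe and do not support. Among the 60 listed or named genes that rose, 12 passed only so (Esam, Wnt2, Gata5, Pitx1, Stra6, Hcn4, Tpbpa, Isl1, Hoxd1, Hoxd9, Fzd1 and Ctsj), as did Mixl1 among the 46 that fell.

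Cardiac progenitor factors stood highest among 28 gene lists and streak, Nodal and neural lists lowest. The highest list median was 1.37 for the cardiac factors and the lowest was -2.30 for the neural genes, beside 0.02 for all genes. Medians were taken over tested members only. Among the cardiac factors, Isl1 and Gata5 were tested only through their day 6 values, and the median is the log2 change of Isl1 itself. The ranking therefore describes the lists and does not support a difference between them.

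**Figure D1:**
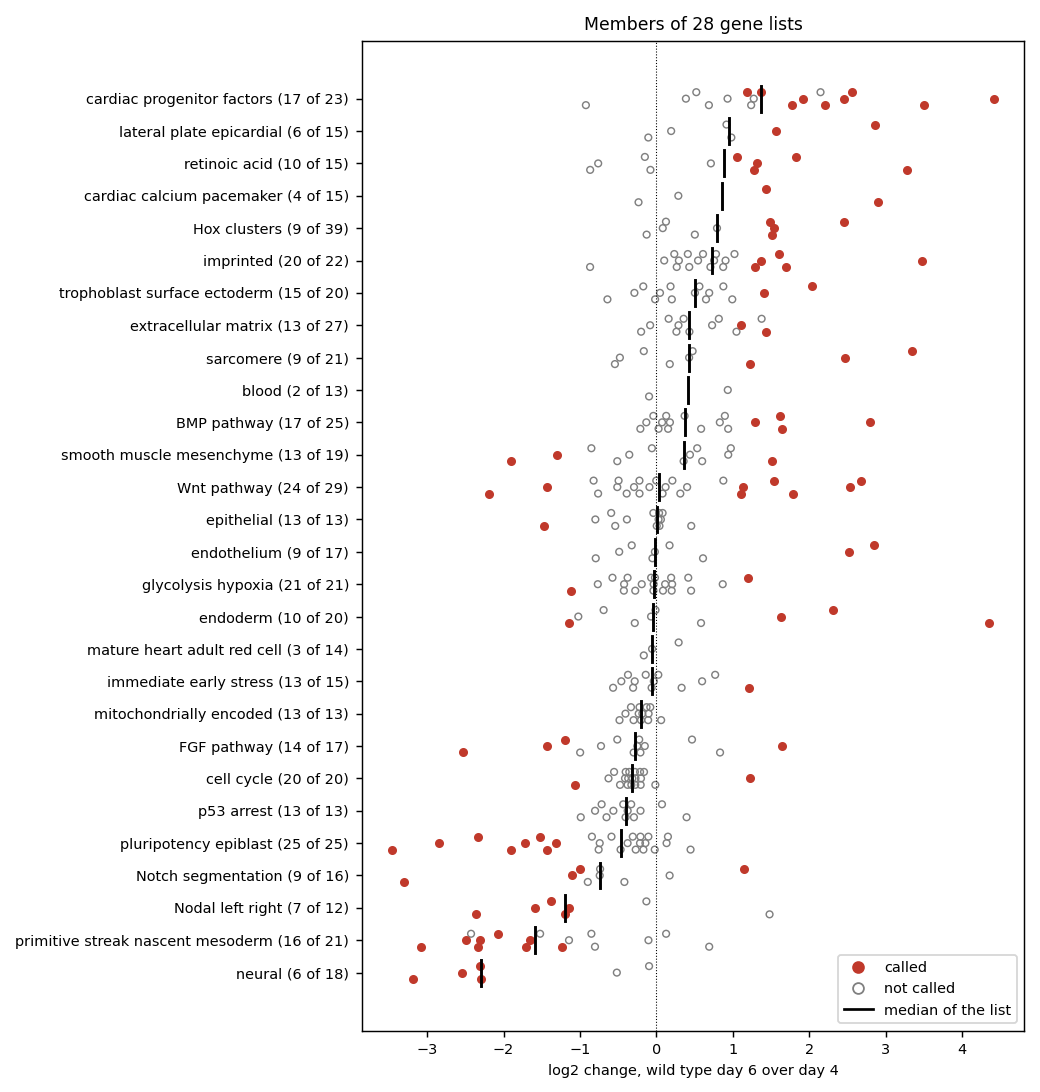
Log2 change of wild-type day 6 over day 4 (horizontal axis) for each tested member of 28 gene lists (rows, with the number tested of the number listed). Filled points passed the call and the bar is the median of the list. Heart factors lie to the right, with 9 of 17 called, and streak genes to the left, with 8 of 16 called.

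Many heart transcription factors rose. Of 23 cardiac progenitor factors 17 were tested, 9 rose and none fell (1 without day 4 replicate 1), against 3.86% and 1.8% of all genes, and the median log2 change of those tested was 1.37. With a filter of 5 scaled RPKM in place of 1, 5 rose. Hand2, a basic helix-loop-helix factor of the second heart field and right ventricle, made the largest rise of the named genes. It had 5.76, 14.4 and 56.0 scaled RPKM at day 6, against 0.0205, 0.246 and 0.881 at day 4. Every day 6 library lay above every day 4 library, and replicate 3 was the highest on both days. The log2 change was 4.42 (SE 0.65, adjusted p = 0.000541), a 21.4-fold rise on the scale of log2(scaled RPKM + 0.5), which understates the change of low genes. Without day 6 replicate 3 it was 3.57 (adjusted p = 0.00116). Hand1, the paralogue of Hand2 that marks extraembryonic and lateral mesoderm, had 205, 239 and 344 at day 6 and was already at 203, 169 and 165 at day 4, and did not pass (log2 change 0.52, adjusted p = 0.155).

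Tbx2, a T-box repressor of the atrioventricular canal, had 4.67, 7.03 and 28.4 scaled RPKM at day 6, against 0.173, 0.387 and 0.794 at day 4. Its log2 change was 3.50 (SE 0.50, adjusted p = 0.00042), and 2.77 without day 6 replicate 3. The groups did not overlap, and the day 6 libraries differed among themselves several-fold. Nkx2-5, the homeodomain factor of early heart cells, had 2.24, 10.1 and 4.81 at day 6, against 0.833, 0.108 and 0.426 at day 4 (log2 change 2.56, SE 0.49, adjusted p = 0.00301). Here replicate 2, not replicate 3, was the highest of day 6. The zinc finger factors Gata6 and Gata5 rose by log2 changes of 2.45 and 2.21, with day 6 values of 4.46, 7.62 and 14.2 for Gata6 and 1.67, 1.42 and 3.62 for Gata5, against no more than 1.63 and 0.102 at day 4. Gata5 was no longer tested when any 1 day 6 library was left out. Gata4, their closest relative, had 2.36, 5.88 and 10.8 at day 6, against 0.457, 2.69 and 4.62 at day 4, so its groups overlapped and it did not pass (adjusted p = 0.165).

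The other 4 members that were called came from other families. Irx3, an Iroquois factor of the ventricular conduction system, was the most abundant of them, with 175, 229 and 157 scaled RPKM at day 6, against 34.7, 61.6 and 53.3 at day 4 (log2 change 1.92, adjusted p = 0.000759). Irx4, a ventricular Iroquois factor, rose less (log2 change 1.18, adjusted p = 0.00508) and fell short of the fold threshold without day 4 replicate 1 (0.95). Smarcd3, a chromatin remodelling subunit of the heart, and Isl1, the LIM factor of second heart field progenitors, rose by 1.77 and 1.37. Isl1 stayed low in all libraries, with 2.24, 2.94 and 1.58 at day 6, against 0.171, 0.697 and 0.922 at day 4. Tbx1, a factor of pharyngeal mesoderm, was lowest in replicate 3 of day 6, with 12.9, 7.8 and 1.07 at day 6 in replicates 1, 2 and 3, against 0.968, 0.428 and 0.977 at day 4, and missed the call (adjusted p = 0.0527). The 6 remaining members lay below the filter: Tbx5, Mef2c and Zfpm2 under 1 scaled RPKM in each library of days 4 to 6, and Tbx20, Meis1 and Osr1 above it in only 2 of them each.

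Contractile genes moved unevenly. Among 21 sarcomere genes 9 were tested, 3 rose and none fell, with a median log2 change of 0.43. Tnni1, the slow-type troponin I of the embryonic heart, had 2.32, 8.33 and 52.8 scaled RPKM at day 6, against 0.322, 0.409 and 1.19 at day 4 (log2 change 3.35, SE 0.74, adjusted p = 0.00694). Replicate 3 set most of that mean, and the log2 change without it was 2.21 (adjusted p = 0.00766). With only the 6 libraries in the fit its call was lost (adjusted p = 0.0645). Myl7, the atrial regulatory light chain, had 4.79, 38.3 and 78.7 at day 6, against 1.53, 4.31 and 9.37 at day 4. The groups overlapped, its adjusted p was 0.0478, and leaving out replicate 2 or 3 of day 6, or 1 or 2 of day 4, ended the call (adjusted p of 0.0925 to 0.187). Myl4, the atrial essential light chain, rose by 1.23 and lost its call without day 6 replicate 2 (adjusted p = 0.0569) or replicate 3 (adjusted p = 0.051). Only 1 of the 3 sarcomere calls was left when either of these libraries was taken out.

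Markers of working heart muscle were absent or close to it. Myh6 and Myh7, the myosin heavy chains of heart muscle, reached no more than 0.374 and 0.218 scaled RPKM at day 6, and Myl2, the ventricular light chain, no more than 0.0721. Tnnt2, cardiac troponin T, had 0.229, 1.27 and 2.99 at day 6, against 0.0249, 0.049 and 0.124 at day 4, and lay below the filter. Actc1, cardiac actin, overlapped between the days, with 2.92, 12.6 and 16.4 at day 6, against 12.4, 4.76 and 7.24 at day 4. Tpm1, a tropomyosin that other cells also make, was lower at day 6 by less than the fold threshold (log2 change -0.54, adjusted p = 0.0113). The 12 untested sarcomere genes also included Ttn, Actn2, Mybpc3 and Csrp3. In such bulk RNA, fewer cells of a type and less RNA per cell cannot be told apart.

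Of 15 calcium-handling and pacemaker genes 4 were tested, 2 rose and none fell. Popdc2, a Popeye protein of heart cell membranes that binds cyclic AMP, had 3.5, 5.57 and 17.3 scaled RPKM at day 6, against 1.27, 0.231 and 0.297 at day 4 (log2 change 2.91, SE 0.45, adjusted p = 0.000676). Hcn4, the pacemaker channel, had 2.16, 1.08 and 0.791 at day 6, against 0.187, 0.0945 and 0.166 at day 4 (log2 change 1.44, adjusted p = 0.0021). Hcn4 was highest in replicate 1, unlike Popdc2, and was no longer tested without day 6 replicate 1 or 2. The other 11 members, Ryr2, Pln and Nppa among them, stayed below the filter.

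The promoters of 4 of these heart genes are shown because GATA factors rose with them and the core letters of the GATA motif, GATAA or its reverse complement TTATC, stand in each. The 250 bases before the gene start are given 5′ to 3′ on the gene's strand from RefSeq (GRCm38.p6), in lower case with GATAA or TTATC in capitals. Hand2 lies at chr8:57320733-57320982 (+ strand), Isl1 at chr13:116309689-116309938 (- strand), Myl7 at chr11:5898783-5899032 (- strand) and Popdc2 at chr16:38361940-38362189 (+ strand).
Hand2: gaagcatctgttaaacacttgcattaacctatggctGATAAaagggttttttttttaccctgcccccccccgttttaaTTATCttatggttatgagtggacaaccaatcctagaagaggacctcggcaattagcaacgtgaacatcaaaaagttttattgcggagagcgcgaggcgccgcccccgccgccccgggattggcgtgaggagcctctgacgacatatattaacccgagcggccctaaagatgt
Isl1: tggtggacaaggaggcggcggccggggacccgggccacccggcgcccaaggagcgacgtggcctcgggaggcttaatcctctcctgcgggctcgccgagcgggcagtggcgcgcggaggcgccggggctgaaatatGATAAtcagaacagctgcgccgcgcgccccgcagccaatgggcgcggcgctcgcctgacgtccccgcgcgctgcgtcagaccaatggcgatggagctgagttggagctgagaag
Myl7: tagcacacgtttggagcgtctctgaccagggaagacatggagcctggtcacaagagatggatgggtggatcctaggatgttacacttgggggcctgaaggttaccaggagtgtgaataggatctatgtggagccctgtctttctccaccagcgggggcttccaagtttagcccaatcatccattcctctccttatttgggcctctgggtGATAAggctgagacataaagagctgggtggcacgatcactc
Popdc2: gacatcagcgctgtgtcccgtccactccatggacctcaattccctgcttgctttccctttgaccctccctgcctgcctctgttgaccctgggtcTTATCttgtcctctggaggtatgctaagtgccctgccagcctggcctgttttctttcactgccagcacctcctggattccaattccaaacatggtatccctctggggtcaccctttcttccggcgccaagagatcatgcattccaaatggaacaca
The matches begin 214 and 172 bases before the start in Hand2, 114 bases in Isl1, 41 in Myl7 and 156 in Popdc2. Of the 14 genes of the 3 heart lists that rose, 12 had a promoter in the table and 5 of these (41.7%) held the letters on either strand, the fifth being Smarcd3, beside 23% of all 27025 promoters of the same length. A match of letters is a description and not a binding site.

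**Figure D2:**
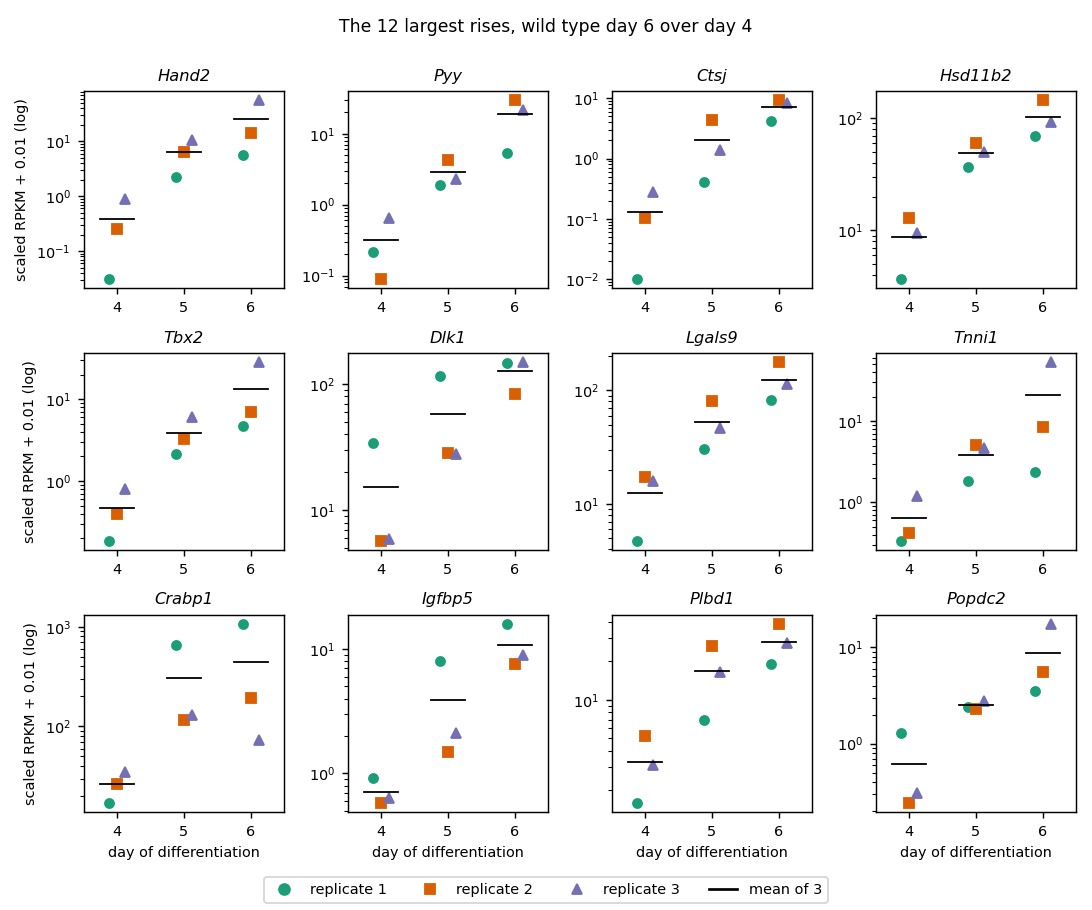
Scaled RPKM plus 0.01 on a log axis by day of differentiation for the 12 named genes with the largest rise between wild-type day 4 and day 6. Points are libraries, marked by replicate number, and bars are means of 3. Hand2 and Tnni1 are highest in day 6 replicate 3, Crabp1 and Igfbp5 in day 6 replicate 1, and Lgals9 and Plbd1 in day 6 replicate 2.

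Among the 12 largest rises, 4 were heart genes, and several of the rest are best known from placenta, gut or embryonic growth. Pyy, the gut hormone peptide YY, had 5.4, 29.5 and 21.7 scaled RPKM at day 6, against 0.204, 0.0786 and 0.639 at day 4 (log2 change 4.35, adjusted p = 8.81e-05). Ctsj, a cathepsin of the rodent placenta, had 4.24, 9.18 and 8.37 at day 6 and was at 0, 0.0928 and 0.271 at day 4 (log2 change 3.60, adjusted p = 0.000167). Hsd11b2, which inactivates glucocorticoids in kidney and placenta, reached 69.6, 144 and 92.1 at day 6, against 3.66, 13 and 9.53 at day 4 (log2 change 3.57, adjusted p = 5.25e-05). In each of these 3 genes day 6 replicate 1 was the lowest of its group. The days did not overlap, as the choice of the largest rises required.

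Lgals9, a galectin, had 82.0, 177 and 113 scaled RPKM at day 6, against 4.69, 17.2 and 15.9 at day 4, and Plbd1, a phospholipase B-like protein, had 18.9, 38.6 and 27.5 against 1.56, 5.23 and 3.1. Both were highest in replicate 2 on both days. Dlk1, an imprinted membrane protein of the Notch ligand family, had 148, 84.0 and 149 at day 6, against 34.0, 5.69 and 5.88 at day 4 (log2 change 3.48). Igfbp5, an insulin-like growth factor binding protein, rose by 3.18 (adjusted p = 0.000225). For both Dlk1 and Igfbp5, replicate 1 was the highest of day 4, and without it the log2 changes were 4.29 and 3.30.

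Retinoic acid genes were uneven between libraries. Of 15 listed genes 10 were tested, 5 rose and none fell, with a median log2 change of 0.89; 3 rose with only the 6 libraries in the fit, and 1 fell without day 4 replicate 1. Crabp1, which binds retinoic acid in the cytoplasm, had 1060, 195 and 73.0 scaled RPKM at day 6, against 17, 26.7 and 34.8 at day 4 (log2 change 3.27, SE 0.80, adjusted p = 0.0116). The 3 day 6 libraries thus spanned more than the difference between replicate 3 and the day 4 libraries. Without day 6 replicate 1 the log2 change was 2.23 (adjusted p = 0.0265), and with only the 6 libraries in the fit the call was lost (adjusted p = 0.0531). Aldh1a2, the main enzyme of retinoic acid synthesis in early mesoderm, had 3.42, 6.62 and 3.39 at day 6, against 0.44, 1.26 and 0.969 at day 4 (log2 change 1.83, adjusted p = 0.000407). Stra6, a retinol receptor, and Dhrs3, which reduces retinal, rose by 1.27 and 1.06, and Dhrs3 lost its call without replicate 1 or 2 of day 6 or replicate 2 or 3 of day 4 (adjusted p of 0.0986 to 0.173). Cyp26a1, which degrades retinoic acid, overlapped between the days.

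Lateral plate and posterior identity genes were carried to a large part by day 6 replicate 3. Of 15 lateral plate and epicardial genes 6 were tested and 2 rose. Pitx1, a hindlimb field factor, had 1.78, 2.03 and 23.1 scaled RPKM at day 6, against 0.115, 0.168 and 0.37 at day 4, with a log2 change of 2.86 in all libraries and 1.76 (adjusted p = 0.000644) without replicate 3, and lost its call with only the 6 libraries in the fit (adjusted p = 0.0682). Foxf1, a forkhead factor of splanchnic mesoderm, had 3.23, 2.12 and 4.34 at day 6, against 0.845, 0.698 and 0.639 at day 4 (log2 change 1.56, adjusted p = 0.00229). Neither gene's groups overlapped. Tcf21, an epicardial factor, and Upk1b, a mesothelial uroplakin, reached 2.54 and 4.31 in day 6 replicate 3 alone and stayed at 0.657 or below in the other libraries of both days, and so lay below the filter.

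Among 39 Hox genes 9 were tested and 4 rose, all highest in day 6 replicate 3. Hoxd1 had 1.33, 2.01 and 5.95 scaled RPKM at day 6, against 0.0259, 0.0355 and 0.141 at day 4 (log2 change 2.45, adjusted p = 0.00145). Hoxb4 and Hoxd9 rose by 1.54 and 1.49, and Hoxd9 was no longer tested without day 6 replicate 3. In these 3 genes every day 6 value lay above every day 4 value, as in 497 of the 504 genes that rose, so this adds no support. The remaining 30 Hox genes were below the filter, and the most one-sided of them was Hoxb6, at 0.241, 0.189 and 8.78 at day 6, against no more than 0.0715 at day 4.

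Of 19 smooth muscle and mesenchyme genes 13 were tested, 1 rose and 2 fell; 3 rose without the filter or with all 30 libraries in the fit, and 2 rose without day 6 replicate 2, day 4 replicate 2 or day 4 replicate 3. Snai2, an inducer of epithelial-mesenchymal transition, had 4.97, 2.46 and 8.85 scaled RPKM at day 6, against 2.58, 1.03 and 0.898 at day 4, and rose by 1.51 (adjusted p = 0.00954) although the lowest day 6 library lay under the highest of day 4. Its call was lost with only the 6 libraries in the fit (adjusted p = 0.0772). Cnn1, the smooth muscle calponin, had 1.55, 2.25 and 3.56 at day 6, against 21.1, 5.41 and 8.8 at day 4, and fell by 1.90 on the log2 scale (adjusted p = 0.00431). Thy1, a surface protein of fibroblasts and stem cells, fell by 1.30. Acta2, smooth muscle actin, overlapped widely, with 26.2, 68.0 and 279 at day 6, against 135, 25.8 and 40.9 at day 4. Tagln, another smooth muscle marker, was at 0.107 or below at day 6.

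Of 27 matrix genes 13 were tested, and Fbln2, a fibulin of developing valves and vessels, and Lama1, a basement membrane laminin, rose by 1.43 and 1.11. The list had 8 called rises with all 30 libraries in the fit and 4 with no filter or with equal sums of RPKM. Lama1 fell short of the fold threshold without day 6 replicate 1 (0.92). Among interstitial collagens, Col1a1 had a mean of 21.1 scaled RPKM at day 6, against 9.79 at day 4, with no overlap between the days. It narrowly missed the call (log2 change 1.05, adjusted p = 0.0522). Col3a1, by contrast, was low except in day 6 replicate 3. Col3a1 had 0.545, 0.352 and 6.95 scaled RPKM at day 6, against 0.111 or less at day 4, and Postn, a periostin of cushion mesenchyme, had 0.399, 0.536 and 6.44, against 0.121 or less. Both lay below the filter.

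Cdh5, the cadherin of endothelial junctions, had 6.73, 10.1 and 6.96 scaled RPKM at day 6, against 0.325, 1.18 and 0.597 at day 4 (log2 change 2.85, SE 0.24, adjusted p = 1.6e-05), and Esam, a cell adhesion molecule of endothelium and platelets, rose by 2.52. The days did not overlap in either gene. The other 7 tested members of the 17 endothelial genes were not called, and the receptors Kdr, Tek and Tie1 lay below the filter with 0.547 or less in day 6 replicates 1 and 2 and 1.18, 1.76 and 1.63 in replicate 3. Cdh5 thus rose where these receptors stayed low. None of the 2 tested blood genes, of 13 listed, was called, and 1 rose without day 6 replicate 1 or day 4 replicate 2.

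Globins differed widely between the day 6 libraries. Hba-x, the embryonic alpha-type globin, had 0.0815, 0.339 and 38.6 scaled RPKM at day 6, against 0.0343, 0.0529 and 0.43 at day 4, and Hba-a1, an alpha globin of later red cells with a near-identical copy, had 0.358, 0.13 and 23.7 against 0.277, 0.224 and 0.238. The summed level of the 13 blood genes was 30.0, 57.6 and 191 at day 6, against 13.8, 32.7 and 25.3 at day 4. The 14 genes of mature heart and adult red cells summed to 26.8, 32.8 and 86.5 at day 6, against 22.1, 27.7 and 31.3 at day 4. In day 6 replicate 3 this list's globins were raised while Myl2 stayed at 0.0721 and Cox8b, a subunit of cytochrome oxidase in adult muscle, was listed at 0. The part of red cell transcripts in the heart, Hox and matrix values of that library was not tested.

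**Figure D3:**
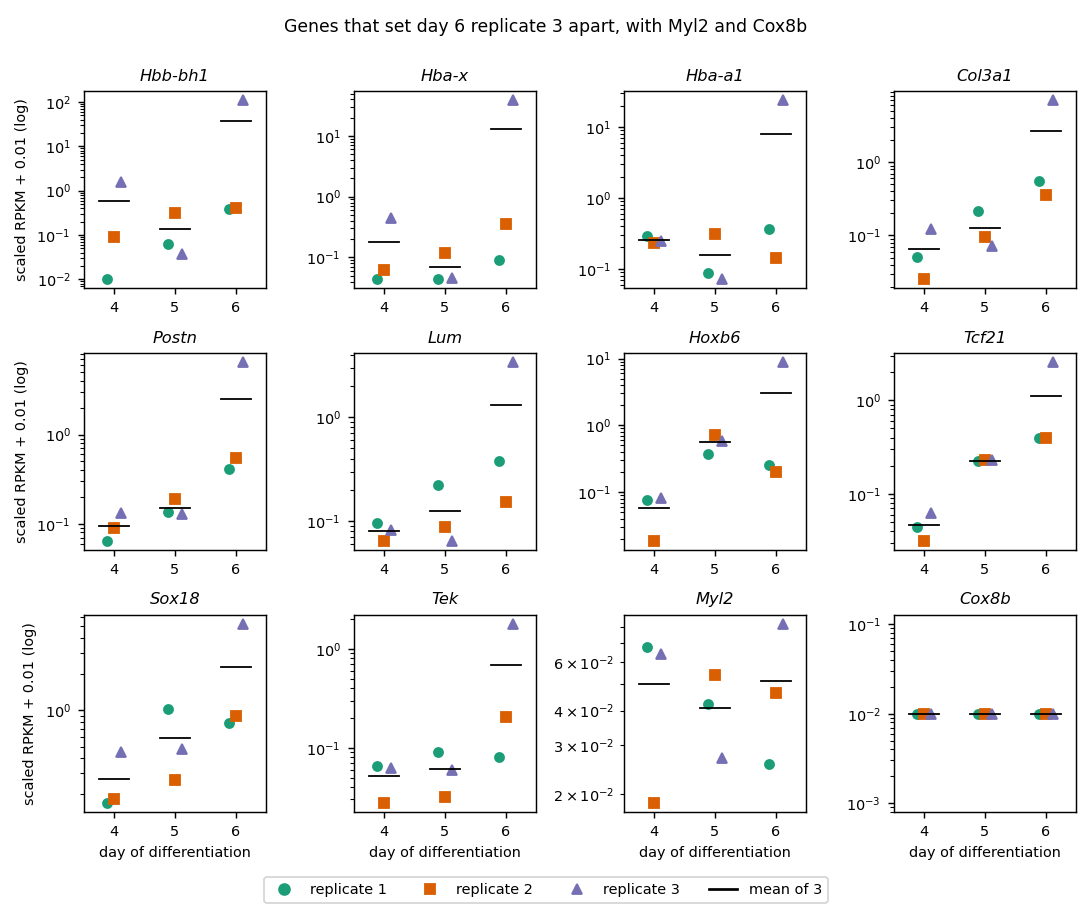
Scaled RPKM plus 0.01 on a log axis by day for 10 genes that set day 6 replicate 3 apart, chosen after their values were seen, and for the mature heart genes Myl2 and Cox8b. Points are libraries, marked by replicate number, and bars are means of 3. Hbb-bh1 reaches 109 in day 6 replicate 3 and 0.403 or less in the other day 6 libraries, while Myl2 stays at or below 0.0721 and Cox8b is listed at 0 in all 9 libraries.

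Genes of the primitive streak and nascent mesoderm fell. Of 21 listed, 16 were tested, 8 fell and none rose, and the median log2 change was -1.59; 5 fell without day 4 replicate 2 or 3. T (Brachyury), the T-box factor that defines the streak, had 5.44, 3.65 and 2.96 scaled RPKM at day 6, against 10.9, 51.5 and 86.4 at day 4 (log2 change -3.08, SE 0.80, adjusted p = 0.016). All day 6 libraries lay below all day 4 libraries, but day 4 replicate 1 was close to them. The log2 change was -3.93 without that library (adjusted p = 0.00479), and leaving out replicate 2 or 3 of either day ended the call (adjusted p of 0.0512 to 0.0744).

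Eomes, a T-box factor of early mesoderm and endoderm, had 0.206, 0.574 and 0.323 scaled RPKM at day 6, against 1.12, 4.96 and 8.09 at day 4 (log2 change -2.31, adjusted p = 0.00914). Fgf8, the growth factor of the streak, had 16.7, 34.1 and 17.7 at day 6, against 69.3, 106 and 188 at day 4 (log2 change -2.34, adjusted p = 0.00067). Tdgf1, the Nodal co-receptor Cripto, was the most uniform, with 10.4, 14.4 and 11.9 at day 6, against 62.7, 63.6 and 87.6 at day 4 (log2 change -2.49, SE 0.18, adjusted p = 6.79e-06). None of these 3 genes overlapped between the days. Nodal and Wnt3, the signals that start the streak, fell by 1.71 and 1.65 on the log2 scale.

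Mesp2 and Mixl1 had fragile calls. Mesp2, a factor of presomitic mesoderm, had 0.307, 0.372 and 0.434 scaled RPKM at day 6, against 0.587, 4.98 and 7.72 at day 4, and lost its call without day 4 replicate 2 or 3 (adjusted p = 0.0579 and 0.0654). Mixl1, a homeodomain factor of streak cells, was at 0.102 or less at day 6 and at 0.105, 1.1 and 1.64 at day 4, and kept its call only without day 4 replicate 1 among the 6 fits that left out a library. Mesp1, which marks cardiac mesoderm precursors, had 0.911, 1.72 and 3.33 at day 6, against 1.15, 23.2 and 47.2 at day 4, and missed the call (log2 change -2.43, adjusted p = 0.0824). Msgn1 of presomitic mesoderm lay below the filter, with 0.56 or less at day 6 and 0.341, 6.58 and 14.8 at day 4. The same order of the day 4 libraries, with replicate 1 lowest and replicate 3 highest, held in T, Eomes, Fgf8, Mesp1, Mesp2, Mixl1 and Msgn1.

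Pluripotency genes fell in part. All 25 listed genes were tested, 8 fell and none rose, and the median log2 change was -0.47. Pou5f1 (Oct4), the core pluripotency factor, had 21.5, 16.4 and 11 scaled RPKM at day 6, against 83.6, 71.6 and 90.1 at day 4 (log2 change -2.34, SE 0.21, adjusted p = 2.33e-05). Nanog, its partner, had 16.4, 14 and 9.33 at day 6, against 47.7, 29.9 and 38.1 at day 4 (log2 change -1.52, adjusted p = 0.00132). Fgf5, the marker of primed epiblast, had 0.593, 0.741 and 0.244 at day 6, against 12.4, 8.99 and 10.6 at day 4 (log2 change -3.46, adjusted p = 2.31e-05). In all 3 the days stood apart, and Pou5f1 and Nanog were still clearly above 1 scaled RPKM at day 6.

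Zic2, Dnmt3b, Otx2, Utf1 and L1td1 made up the rest of the calls. Zic2, a zinc finger factor of epiblast and neural plate, fell by 2.85 on the log2 scale, Dnmt3b, a de novo DNA methyltransferase, by 1.90, Otx2, a factor of epiblast and anterior neural tissue, by 1.72, and Utf1 and L1td1, which mark undifferentiated cells, by 1.43 and 1.32. Sox2, shared by pluripotent and neural cells, overlapped, with 24.5, 17 and 6.46 at day 6, against 40.4, 12.9 and 14.3 at day 4. Factors of the naive state, Klf4, Esrrb, Tfcp2l1 and Zfp42, did not pass either, with log2 changes of 0.45, -0.21, 0.13 and 0.15. Of the 8 genes that fell, 7 were highest in day 4 replicate 1, the library with the fewest streak transcripts.

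Neural genes had the lowest median of all lists (-2.30), over 6 tested of 18 listed, and 4 of them fell. Sox3, a factor of neural progenitors and epiblast, had 15.7, 4.91 and 4.4 scaled RPKM at day 6, against 94.2, 51.7 and 65.5 at day 4 (log2 change -3.19, SE 0.66, adjusted p = 0.00443). Foxd3, of neural crest and epiblast, and Nes, the nestin filament of progenitors, fell by 2.54 and 2.30, and Olig2, of motor neuron progenitors, by 2.29. These genes were highest in replicate 1 on both days. Pax6, Neurog2 and Elavl3 were below 1 scaled RPKM in each library of days 4 to 6, and Tubb3 overlapped.

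**Figure D4:**
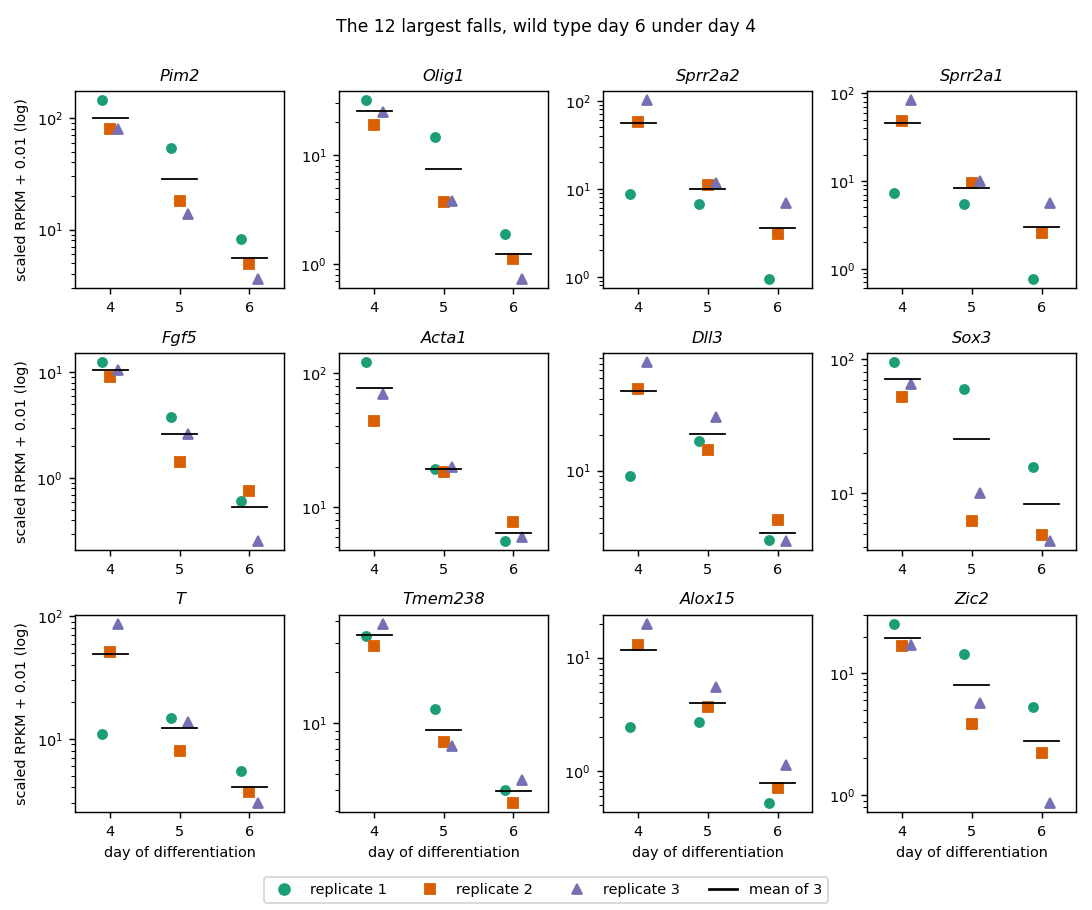
Scaled RPKM plus 0.01 on a log axis by day of differentiation for the 12 named genes with the largest fall between wild-type day 4 and day 6. Points are libraries, marked by replicate number, and bars are means of 3. Day 5 lies between the other days for most genes, and in Dll3, T, Alox15 and both Sprr2a genes day 4 replicate 1 lies below the other day 4 libraries.

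The largest fall of all named genes was that of Pim2, a serine/threonine kinase that promotes cell survival. Pim2 had 8.28, 4.91 and 3.57 scaled RPKM at day 6, against 144, 79.2 and 80.3 at day 4 (log2 change -4.08, SE 0.44, adjusted p = 8.03e-05). Its promoter is shown because it holds the octamer ATGCAAAT, the sequence that POU factors such as Oct4 bind, as well as its reverse complement ATTTGCAT, and because Pou5f1 fell with it. The 250 bases before its start, at chrX:7878056-7878305 (+ strand, RefSeq, GRCm38.p6), are given with both in capitals.
Pim2: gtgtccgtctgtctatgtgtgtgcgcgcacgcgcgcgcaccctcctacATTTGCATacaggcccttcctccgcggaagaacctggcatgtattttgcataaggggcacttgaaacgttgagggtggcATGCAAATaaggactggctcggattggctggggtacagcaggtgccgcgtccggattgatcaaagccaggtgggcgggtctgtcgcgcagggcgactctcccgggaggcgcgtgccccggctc
The matches begin 202 and 123 bases before the start. An octamer on either strand stood in 1.61% of all 27025 promoters, in 1 of the 8 promoters found for the 12 largest falls (12.5%) and in 0 of the 7 found for the pluripotency genes that fell.

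Olig1, an oligodendrocyte lineage factor, had 1.89, 1.11 and 0.715 scaled RPKM at day 6, against 31.9, 19.1 and 24.8 at day 4 (log2 change -3.92, adjusted p = 8.03e-05). Acta1, skeletal alpha-actin, had 5.54, 7.68 and 5.99 at day 6, against 120, 43.8 and 69.6 at day 4 (log2 change -3.39, adjusted p = 2.58e-05). Both were highest in day 4 replicate 1, with no overlap between days, as the choice of the largest falls required. Tmem238, a transmembrane protein, and Alox15, a lipoxygenase, fell by 2.92 and 2.89. Sprr2a1 and Sprr2a2, small proline-rich proteins of barrier epithelia, fell by 3.46 and 3.51, but they are near-identical copies between which reads may have been split, and both lost their calls without replicate 1 or 2 of day 6 or replicate 2 or 3 of day 4 (adjusted p of 0.0523 to 0.086).

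In the BMP pathway 17 of 25 genes were tested, 4 rose and none fell. The ligand Bmp4, whose protein was also in the medium, had 11.4, 24.1 and 47.7 scaled RPKM at day 6, against 6.01, 6.37 and 9.95 at day 4 (log2 change 1.64, adjusted p = 0.0232), and lost its call without replicate 2 or 3 of day 6 or replicate 1 or 2 of day 4 (adjusted p of 0.0666 to 0.0938). Msx1, a homeodomain target of BMP, had 30.7, 19.2 and 57.1 at day 6, against 3.14, 3.88 and 6.17 at day 4 (log2 change 2.79, adjusted p = 0.000263), and Id2, an inhibitor of helix-loop-helix factors, rose by 1.29. Bambi, a pseudoreceptor that dampens BMP signalling, rose by 1.62 (adjusted p = 0.00036). Id1 and Id3, also BMP targets, did not pass, with log2 changes of 0.13 and 0.37, nor did the antagonist Nog at -0.13.

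Wnt genes moved both ways. Of 29 listed, 24 were tested, 6 rose and 2 fell, and the median log2 change was 0.04. Among ligands, Wnt11, a non-canonical Wnt of the outflow tract, had 3.56, 3.87 and 6.26 scaled RPKM at day 6, against 1.83, 0.575 and 0.662 at day 4 (log2 change 1.79, adjusted p = 0.00202), while Wnt8a, of the streak, fell by 2.19. Wnt2, of the cardiac inflow region, had 0.617, 2.43 and 14.6 at day 6, against 0.335 or less at day 4, rose by 2.54 and lost its call without day 4 replicate 1 (adjusted p = 0.0548). Genes of the list other than ligands rose as well. Sfrp5, a secreted antagonist of the heart inflow and foregut, had 9.01, 12.5 and 7.07 at day 6, against 0.931, 1.04 and 1.14 at day 4 (log2 change 2.67, adjusted p = 3.78e-05), and Dkk3 rose by 1.54 (adjusted p = 2.79e-05). The receptor Fzd1 and the feedback inhibitor Nkd1 rose by 1.11 and 1.13 and fell short of the fold threshold without day 6 replicate 3 (0.89 and 0.74). Rspo3, which enhances Wnt signalling, fell by 1.44 at an adjusted p of 0.0496 and lost its call without any of day 6 replicates 1 and 2 and day 4 replicates 2 and 3 (adjusted p of 0.123 to 0.201). Axin2, a general Wnt target, was flat at -0.002.

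FGF and Nodal genes were called lower more often than higher, on few calls. Of 17 FGF pathway genes 14 were tested, 3 fell and 1 rose, beside 1.8% and 3.86% of all genes. With a pseudocount of 0.1 or without day 6 replicate 2, 2 rose. By adjusted p alone 6 fell and 2 rose. Fgf17, a ligand close to Fgf8, had 0.652, 0.523 and 0.426 scaled RPKM at day 6, against 5.29, 4.41 and 6.84 at day 4 (log2 change -2.53, SE 0.16, adjusted p = 6.58e-06). The FGF response genes Etv5 and Dusp6 fell by 1.43 and 1.20, and Dusp6 lost its call without day 6 replicate 3 or day 4 replicate 1 or 3 (adjusted p of 0.0505 to 0.0632). Fgfr3, a receptor, had 1.3, 1.43 and 3.15 at day 6, against 0.335, 0.194 and 0.228 at day 4, and rose by 1.64.

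Of 12 Nodal and left-right genes 7 were tested, 5 fell and none rose. With all 30 libraries in the fit, under the replicate block, or without day 6 replicate 1 or day 4 replicate 3, 1 rose. Foxj1, the master factor of motile cilia, had 1.18, 1.44 and 1.12 scaled RPKM at day 6, against 4.95, 8.85 and 13.5 at day 4 (log2 change -2.36, adjusted p = 0.00022), and Foxh1, which carries Nodal signals to DNA, fell by 1.38. The Nodal antagonists Lefty1 and Lefty2 and the ligand Gdf3 fell by 1.58, 1.20 and 1.15. These 3 calls were fragile: Lefty1 was lost without replicate 2 or 3 of day 6 or replicate 1 of day 4 (adjusted p of 0.0515 to 0.107), Lefty2 fell short of the fold threshold without day 6 replicate 1 or day 4 replicate 3 (-0.95 and -0.97), and Gdf3 was lost without replicate 2 or 3 of day 6 or replicate 1 or 3 of day 4 (adjusted p of 0.0752 to 0.197).

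In the Notch and segmentation list 9 of 16 genes were tested, 3 fell and 1 rose. Dll3, a Notch ligand of the segmenting mesoderm that inhibits signalling, had 2.59, 3.8 and 2.53 scaled RPKM at day 6, against 8.93, 49.0 and 82.0 at day 4 (log2 change -3.30, adjusted p = 0.00173). As with T, day 4 replicate 1 was the nearest to day 6. The receptors Notch3 and Notch1 fell by 1.11 and 1.00 and the target Hey1 rose by 1.14. Each of these 3 lost its call in some fits without 1 library, Notch3 without replicate 2 or 3 of day 6 or replicate 2 or 3 of day 4, Notch1 without day 6 replicate 3 or day 4 replicate 2 or 3, and Hey1 without day 6 replicate 1 or day 4 replicate 1.

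Imprinted genes leaned upward. Of 22 listed, 20 were tested, 5 rose, none fell and 19 lay above 0, with a median log2 change of 0.73, where 6824 of 13057 genes lay above 0 overall. Besides Dlk1, Slc22a18, an organic cation transporter, had 16.9, 32.4 and 27.6 scaled RPKM at day 6, against 4.6, 9.78 and 8.49 at day 4 (log2 change 1.70, adjusted p = 0.00169). Nnat, Plagl1 and Ndn rose by 1.61, 1.37 and 1.28, and each lost its call without day 6 replicate 3 (log2 changes of 1.48, 0.88 and 0.89); Nnat lost it also without day 6 replicate 1 or day 4 replicate 2 or 3, and Ndn without day 4 replicate 2 or 3. The growth factor Igf2 and its neighbour H19 were abundant on both days and did not pass, with log2 changes of 0.61 and 0.41. Snrpn was lower at day 6 by less than the fold threshold (-0.87, adjusted p = 0.00329).

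Markers of other tissues moved singly. In the endoderm list 10 of 20 genes were tested, 3 rose, Pyy among them, and 1 fell. Spink1, a trypsin inhibitor, had 3.48, 22.8 and 14.9 scaled RPKM at day 6, against 2.29, 1.29 and 1.83 at day 4 (log2 change 2.31, adjusted p = 0.00947), and Rbp4, the plasma retinol carrier, had 1.2, 3.63 and 12.4, against 1.1, 0.828 and 0.947, and was called only without day 6 replicate 1 among the fits that left out a library. Afp, the fetal liver and yolk sac protein, was at 0.127 or less at day 6, and the endoderm factors Sox17 and Foxa2 overlapped between the days. Cldn6, a junction protein of embryonic epithelia and endoderm, fell by 1.15. Of 20 trophoblast and surface ectoderm genes 15 were tested and 2 rose, or 4 without day 6 replicate 1. Gata3, a factor of trophoblast and surface ectoderm, had 13.5, 19.1 and 9.85 at day 6, against 4.3, 5.9 and 4.52 at day 4 (log2 change 1.40, adjusted p = 0.00309), and Tpbpa, a marker of the placental junctional zone, had 1.94, 1.02 and 2.86, against 0.0905 or less. Elf5, a factor of trophoblast stem cells, stayed below 1 scaled RPKM, and the keratin genes Krt8 and Krt18 were abundant and flat (log2 changes of 0.05 and -0.02).

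Lists of general cell functions gave few calls at the fold threshold. By adjusted p alone, 10 cell cycle genes, 5 p53 target and arrest genes and 6 glycolysis and hypoxia genes fell, and 2 of the last list rose. Of all 13057 genes, 1067 fell and 1623 rose by that rule. In the cell cycle list all 20 genes were tested and 19 lay below 0, beside 6233 of the 13057 genes overall. In 17 of them all day 6 values lay under all day 4 values, where 36.4% of all genes showed no overlap in either direction. The median log2 change was -0.32, and only the D-type cyclins were called. Ccnd1 fell by 1.06 (adjusted p = 0.00192) and Ccnd2 rose by 1.22 (adjusted p = 0.000737). Ccnd2 had 4.37, 3.04 and 3.25 scaled RPKM at day 6, against 1.85, 0.885 and 1.07 at day 4, and Ccnd1 fell short of the fold threshold without day 6 replicate 2 or day 4 replicate 1 (-0.95 and -0.92). None of 13 p53 target and arrest genes was called, with a median of -0.40, and 1 fell without day 6 replicate 2, day 4 replicate 2 or day 4 replicate 3. Of 21 glycolysis and hypoxia genes Ndrg1 rose by 1.20 and Ddit4 fell by 1.12, both with calls that were lost in 4 of the 6 fits without 1 library, Ndrg1 without replicate 2 or 3 of day 6 or replicate 1 or 3 of day 4 and Ddit4 without replicate 2 or 3 of day 6 or replicate 2 or 3 of day 4. Of 13 epithelial genes Rab25, a trafficking GTPase, fell by 1.48 (adjusted p = 0.00086), while Cdh1 and Epcam were lower by 0.54 and 0.59. Ddit3, a stress factor also called CHOP, was the only member called of 13 tested early response genes, and rose by 1.21. None of the 13 mitochondrially encoded genes was called.

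Day 5 lay between the other days for most genes that changed. Between day 5 and day 4, 106 genes were called higher (0.812%) and 59 lower (0.452%), and between day 6 and day 5 only 2 were higher (0.0153%) and 5 lower (0.0383%), together 0.0536%. For 495 of the 504 genes that rose and 233 of the 235 that fell, the day 5 mean lay between the means of day 4 and day 6, and a median of 58.0% of the rise and 65.7% of the fall had been made by day 5. These genes were selected for a wide gap between day 4 and day 6, which favours a day 5 mean inside it. The share over all genes tested was not taken, so these values describe the selected genes only. Of the same genes, 102 and 56 were already called at day 5. These day 5 counts depend on replicate 1 of day 5, the least like its group (lowest correlation 0.967), without which 237 genes were higher and 153 lower than at day 4. They were 47 and 27 without day 5 replicate 2, 52 and 22 without day 5 replicate 3 and 47 and 31 without day 4 replicate 3, and 53 were higher without day 4 replicate 1. With only the 6 libraries of these days in the fit no gene was called in either direction by limma, and 1582 had an unadjusted p under 0.05.

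Hand2 had 0.0205, 0.246 and 0.881 scaled RPKM at day 4, 2.24, 6.44 and 10.5 at day 5, and 5.76, 14.4 and 56.0 at day 6, and was called at day 5 already (log2 change 2.87 over day 4). Pou5f1 had 83.6, 71.6 and 90.1 at day 4, 37.9, 23.5 and 24.7 at day 5, and 21.5, 16.4 and 11 at day 6. In replicate 1 of day 5, Pou5f1 and Sox3 (59.9, against 6.2 and 10.1 in the other libraries of day 5) were the highest of their group. That replicate therefore stood nearer to day 4 in these genes.

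The genes called between day 6 and day 5 are given next, those outside the lists being named after their values were seen. Tlx1, a homeodomain factor of the spleen, had 0.0827, 0.085 and 0.18 scaled RPKM at day 4, 0.742, 0.377 and 0.774 at day 5, and 1.54, 3.3 and 3.01 at day 6. Smyd1, a methyltransferase of heart and skeletal muscle needed for sarcomere assembly, had 0.219, 0.109 and 0.235 at day 4, 0.816, 0.418 and 0.583 at day 5, and 2.05, 1.7 and 2.48 at day 6 (log2 change 1.23 over day 5, adjusted p = 0.0102). Cer1, a secreted antagonist of Nodal, BMP and Wnt, was a transient gene, with 1.33, 1.05 and 1.66 at day 4, 3.74, 3.74 and 7.52 at day 5, and 0.633, 1.44 and 0.162 at day 6. It was called higher at day 5 than at day 4 (log2 change 1.52) and lower at day 6 than at day 5 (-2.21). Fgf17, Tdgf1, Vrtn, a factor linked to vertebral number in pigs, and Mup6, a major urinary protein gene of a family of close copies, were the other 4 genes lower at day 6 than at day 5. The counts of 2 and 5 became 29 and 10 without day 6 replicate 1, 26 and 5 without day 5 replicate 1, and 22 and 9 without day 5 replicate 2. They became 1 and 1 without day 6 replicate 2 and 0 without day 6 replicate 3 or day 5 replicate 3. No gene was called with only the 6 libraries of the 2 days in the fit, where 573 genes had an unadjusted p under 0.05.

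Whether the course was the same in Hdn null cells was asked with an interaction test, the wild-type change from day 4 to day 6 minus the Hdn null change, over all 30 libraries. The difference was called positive for 211 genes (1.49%) and negative for 148 (1.04%) of 14196 tested. Without day 6 replicate 2 of wild type these counts were 119 and 102. Of the 106 listed or named genes called in wild type, 9 differed and 87 were also called in the same direction in Hdn null cells, in which 5.46% of genes rose and 2.74% fell over these days, 8.2% in all. Since the 106 genes were chosen by their wild-type change, which is part of the difference tested, the count of 9 describes and does not support. Transcripts of mature heart differed between the genotypes. Wild-type libraries of these days stayed at or below 0.0721 for Myl2, whereas all 3 Hdn null libraries of day 6 and replicate 3 of day 4 held them, with Myl2 at 45.2, 129 and 115 scaled RPKM at day 6 and 0.117, 0.144 and 17.1 at day 4, and adult globin (Hbb-bs) at 61.0, 181 and 155 at day 6. In every comparison with Hdn null cells, the 87 shared calls included, the genotype and the presence of these transcripts cannot be told apart. Whether RNA of other samples was present in those libraries was not tested.

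**Figure D5:**
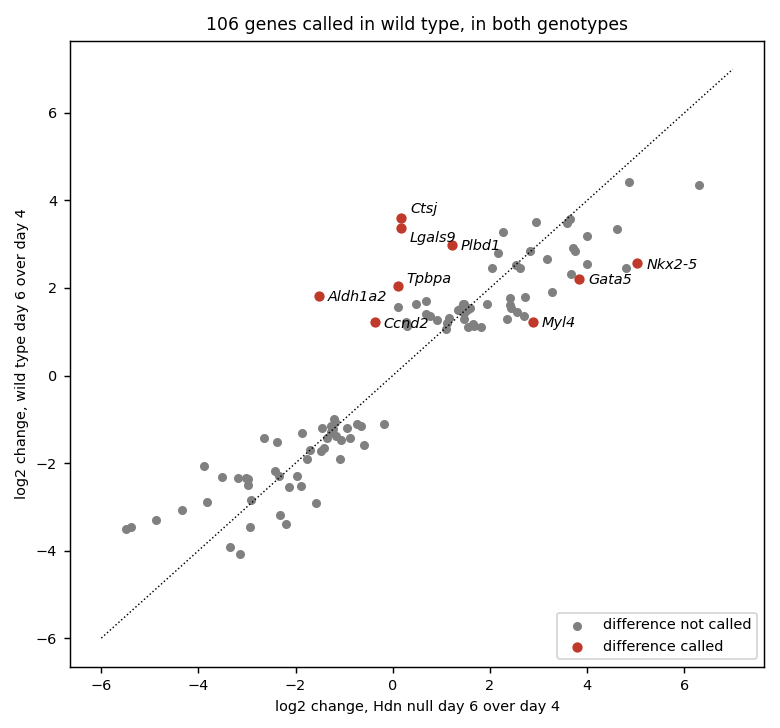
Log2 change of day 6 over day 4 in wild-type cells (vertical axis) and in Hdn null cells (horizontal axis) for the 106 listed or named genes called in wild type. Red points with names passed the test of the difference, and the dotted line marks equal change. Ctsj, Lgals9, Tpbpa and Aldh1a2 lie far above the line and Nkx2-5 below it.

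Ctsj and Lgals9 rose in wild-type cells and had log2 changes of 0.17 each in Hdn null cells. Ctsj had 4.24, 9.18 and 8.37 scaled RPKM at day 6 in wild-type cells and 0, 0.209 and 0 in Hdn null cells, where it was listed at 0 in all 3 libraries of day 4. Lgals9 had 82.0, 177 and 113 at day 6 in wild-type cells and 5.74, 10.2 and 6.3 in Hdn null cells, and the difference of its changes was 3.20 (adjusted p = 0.00331). The 2 genotypes did not overlap at day 6 in either gene. Aldh1a2 moved in opposite directions, with a log2 change of 1.83 in wild-type cells and -1.52 in Hdn null cells. Nkx2-5 rose in both, to 2.24, 10.1 and 4.81 in wild-type cells and 31.3, 25.7 and 33.4 in Hdn null cells, with a difference of changes of -2.47 that was called in 6 of 12 fits without 1 library. Hand2 rose in both genotypes, with log2 changes of 4.42 in wild-type and 4.86 in Hdn null cells and a difference of -0.43 (SE 0.82, adjusted p = 0.815), an SE that leaves room for a difference of more than a log2 unit either way.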

How the data were processed

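RNA was measured by sequencing of total RNA libraries (ScriptSeq v2, per the labels' protocols). The authors deposited RPKM for 52636 Ensembl genes in 30 libraries. STAR, DESeq2 and the mm10 build are named in the submitters' processing notes; their versions, the annotation and the strand setting were not given in the sources used here, so reads of overlapping antisense genes cannot be told apart. No molecular identifiers are named, so reads are not independent molecules.

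RPKM was divided by median-of-ratios size factors over 11618 genes in all 30 libraries. Genes with at least 1 scaled RPKM in 3 of 15 wild-type libraries were kept (13057 genes). log2(scaled RPKM + 0.5) was fitted with limma 3.58.1 (R 4.3.3), with a mean-variance trend and 1 mean per group over the 15 wild-type libraries, which share the estimate of spread. The test of the difference between genotypes used all 30 libraries and 14196 genes. A call required p under 0.05 after Benjamini-Hochberg adjustment together with a log2 change that reached 1 in size. Fold changes on this scale understate the change of low genes. The procedure was run on simulated libraries with independent noise. These lacked outlying libraries and deviations shared between libraries, so the run does not support the calls made here. Tables and figures were made with Python 3.11.15, pandas 2.3.3, numpy 2.4.6 and matplotlib 3.10.9.

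The 12 largest rises and falls without overlap between the days were named, passing over provisional gene symbols, together with up to 4 tested members and any called member of each list. Other genes were chosen after their values were seen. The members and lists were chosen with earlier results of these data known. Same-numbered libraries of day 6 and day 4 deviated together (correlations of 0.539, 0.459 and 0.237), a pairing that comes from the data and not from the labels. Alternatives were other scalings, pseudocounts, filters, call rules and sets of libraries, leaving out each library and the replicate number as a block. Some called members of the lists are not reported here.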

Additional observations from a re-analysis of the deposited data

Results flagged for a closer look

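Of the 106 named genes called between day 6 and day 4 in wild-type cells, 9 are set out here because the test of the difference itself, the wild-type change minus the Hdn null change, passed (limma over 30 libraries, 14196 genes). The 106 genes were chosen by their wild-type change, which is part of that difference. Such a choice favours differences in the direction of the wild-type change, so the count of 9 describes the chosen genes only. Ctsj changed by 3.60 in wild-type cells and 0.17 in Hdn null cells on the log2 scale, a difference of 3.43 (SE 0.48, adjusted p = 0.000158). Tpbpa changed by 2.04 in wild-type cells and 0.10 in Hdn null cells, a difference of 1.94 (adjusted p = 0.000784), and was at 0.101 scaled RPKM or less in each Hdn null library of these days. Among wild-type libraries Ctsj, Tpbpa and Gata5 (below) passed the filter on low values only through day 6, so their tests describe and do not support. The difference was 3.20 for Lgals9 (adjusted p = 0.00331). It was 1.78 for Plbd1 (adjusted p = 0.0434), whose difference was called in only 4 of 12 fits without 1 library.

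Aldh1a2, the retinoic acid synthase, had 3.42, 6.62 and 3.39 scaled RPKM at day 6 in wild-type cells and 0.913, 0.693 and 0.606 in Hdn null cells, and at day 4 it had 0.44, 1.26 and 0.969 in wild-type cells and 3.8, 5.16 and 1.31 in Hdn null cells. The genotypes thus crossed between the days without overlap on either, though at day 4 they nearly touched (1.26 against 1.31). The difference was 3.35 (adjusted p = 0.000191). Ccnd2, a D-type cyclin, changed by 1.22 in wild-type cells and -0.37 in Hdn null cells, a difference of 1.59 (adjusted p = 0.00155).

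The heart genes differed in the other direction. Gata5 changed by 2.21 in wild-type cells and 3.83 in Hdn null cells, a difference of -1.62 (adjusted p = 0.000659). The difference was -2.47 for Nkx2-5 (adjusted p = 0.0322) and -1.65 for Myl4 (adjusted p = 0.0194). Nkx2-5 lost the call without any of wild-type day 6 replicate 1, wild-type day 4 replicates 1 and 3, Hdn null day 6 replicates 1 and 3 and Hdn null day 4 replicate 1, and Myl4 without Hdn null day 6 replicate 3 or day 4 replicate 1. The mature heart gene Cox8b was listed at 0 in the wild-type libraries of day 6 and stood at 5.83, 18.8 and 17.2 in the Hdn null libraries of that day, so genotype and mature heart transcripts cannot be told apart, here and for the other 6 genes. Differences of Lgals9, Aldh1a2 and Ccnd2 were called in all 12 fits that left out 1 library.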

How the results depend on the processing

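No named gene that was called between day 6 and day 4 changed direction in any setting. Of these 106 genes, 67 kept their call in every setting and 77 in each fit without 1 library, not counting genes that were no longer tested. With only the 6 libraries 24 lost it, with the 9 libraries of days 4 to 6 17, and with a pseudocount of 1 or no filter 12 each. The replicate block changed no named call between day 6 and day 4, where it gave 526 and 248 genes. Among genes that were not called, leaving out 1 library turned the sign of the log2 change of Nppb (-0.083 to 0.628), Spi1 (-0.273 to 0.039), Tnni3 (-0.436 to 0.079), Mb (-0.144 to 0.034) and mt-Nd4 (-0.685 to 0.05), and equal sums of RPKM turned that of Mb (0.02). The cause of these changes was not tested.

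Counts moved most with the filter, the call rule and the libraries in the fit. Day 6 over day 4 gave 264 higher genes with a filter of 5, and 1623 higher and 1067 lower by adjusted p alone. Leaving out 1 library gave 406 to 604 and 185 to 277. Day 5 over day 4 gave 64 higher and 36 lower with a pseudocount of 1, 50 and 30 without a filter, 223 and 175 by adjusted p alone, 18 and 15 with 9 libraries and 0 and 0 with 6. It gave 51 higher with a filter of 5 and 38 lower with equal sums. Leaving out 1 library gave 47 to 237 and 22 to 153. Day 6 over day 5 gave 11 higher without scaling, 10 with equal sums, 1 and 4 with pseudocounts of 0.1 and 1, 4 without a filter, 7 by adjusted p alone, 4 without the trend and 24 with 30 libraries. With a filter of 5 it gave 0 higher and 1 lower, and with 9 or 6 libraries 0 and 0. By limma 855 genes had an unadjusted p under 0.05 with 9 libraries and 827 with a filter of 5. Under the replicate block it gave 6 higher, and leaving out 1 library gave 0 to 29 and 0 to 10. Same-numbered libraries of day 6 and day 5 had correlations of 0.262, -0.064 and 0.046, against up to 0.442 between other numbers. For day 5 and day 4 they were 0.278, 0.238 and 0.036, against up to 0.256. The difference between genotypes gave 97 and 69 genes with a filter of 5, 384 and 263 by adjusted p alone, and 119 to 280 and 102 to 221 without 1 library. Its replicate block gave 232 and 169.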

Other observations

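The following genes were chosen after their values were seen and stand for no group. Cyp11a1, which makes pregnenolone from cholesterol, had 2.09, 6.7 and 5.68 scaled RPKM at day 6, against 0.134, 0.433 and 0.446 at day 4 (log2 change 2.56, adjusted p = 0.000386 in limma). Serpinb9e, Serpinb9f and Serpinb9g, serine protease inhibitors of a mouse gene cluster with close copies between which reads may be split, rose by 2.48, 2.68 and 2.62. Serpinb9e had 20.3, 32.6 and 30.6 at day 6, against 2.73, 7.23 and 4.44 at day 4. Replicate 1 was the lowest library of each day for Cyp11a1 and Serpinb9e, and neither overlapped between the days. In Hdn null cells Serpinb9e stayed at 2.77 or less, but its change did not differ between genotypes by the test (0.50, adjusted p = 0.597). The change of Cyp11a1 did differ (1.66, adjusted p = 0.0125).

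Rsad2, an interferon-inducible antiviral enzyme, had 4.25, 11.2 and 5.49 scaled RPKM at day 6, against 0.204, 0.926 and 0.623 at day 4 (log2 change 2.74, adjusted p = 0.000407). Psmb8 and Psmb10, catalytic subunits of the immunoproteasome, fell. Psmb8 had 0.955, 1.04 and 0.908 at day 6, against 4.96, 7.88 and 14 at day 4 (log2 change -2.57), and Psmb10 had 11.3, 15.0 and 17.2 at day 6, against 45.1, 53.2 and 91.5 at day 4 (log2 change -2.04). None of the 3 genes overlapped between the days. Rgs5, a pericyte regulator of G-protein signalling, rose by 2.68 and Wfikkn1, a myostatin-binding protease inhibitor, by 2.80.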
